A study of Mus musculus with 8 samples.

Results

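The cells described here are the Fibroblasts of a single-cell survey of mouse pancreatic islets, the class of connective-tissue cells that came along with the islets. They were taken from the authors' deposited annotation of 12 cell types and were chosen by their transcript level of Col3a1, the gene of type III collagen (chr1:45311538-45349706, mm10). Of the pair of collagen-rich classes, Fibroblasts and Pericytes, Fibroblasts had the higher level, 5350 against 2558 UMIs per 1000000 (CPM; a UMI, or unique molecular identifier, stands for 1 captured transcript). The class is 1 cluster of the authors' 17 and holds 327 of 6959 cells, 264 of 3776 with vehicle and 63 of 3183 with FAKi. Wild-type mice, 6 to 12 weeks old at the start, received by oral gavage either vehicle or FAKi, the focal adhesion kinase inhibitor PF562271, at 50 mg/kg in 2 doses a day for 3 weeks. Islets were isolated with collagenase and handpicked 10 days after the last dose. Islets of 5 mice were pooled per condition, so each condition is 1 library sequenced on 4 lanes, with no replicate. All differences between FAKi and vehicle below are therefore differences between 2 libraries. They carry no p-value, and their intervals (95%, exact) cover counting error only, not the spread between mice.

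Fibroblasts of the pancreas lie around islets, ducts and vessels and secrete the interstitial matrix: fibrillar collagens, the small proteoglycans that decorate collagen fibrils, elastic fibres, and the proteases that remodel them. They are usually recognised by Pdgfra, a receptor for platelet-derived growth factor, and by Dcn, which encodes the collagen-binding proteoglycan decorin. Pericytes, the contractile cells on capillaries, are instead rich in Pdgfrb and Rgs5. Focal adhesion kinase, encoded by Ptk2, carries signals from integrins, the receptors by which cells grip matrix, and fibroblasts are among the cells in which this has been studied most.

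The class held 2518204 UMIs in vehicle and 584463 in FAKi, of 59514118 and 57836783 over all cells. Its cells had a median of 7880.5 UMIs and 2782 genes in vehicle and of 7494 UMIs and 2682 genes in FAKi. Mitochondrial genes took a median of 5.19% and 4.96% of a cell's UMIs. Depth per cell was therefore close in the 2 libraries, and the smaller FAKi total came from the smaller number of cells. The class made up 6.99% of the vehicle cells (6.20 to 7.85%) and 1.98% of the FAKi cells (1.52 to 2.53%). Other classes differed in share as well: Pericytes made up 3.63% and 2.01%, Endothelial cells 14.4% and 8.45%, B cells 2.99% and 0.283%, and Beta cells 28.5% and 42.0%. Shares are tied to each other within a library, and they also depend on how much surrounding tissue was carried along by handpicking. A lower number of fibroblasts in the mice and a lower number carried along cannot be told apart here.

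The annotation was compared with its markers first. Dcn stood at 9172 CPM (9054 to 9291) in vehicle and 6556 CPM (6350 to 6767) in FAKi, and at 1232 and 1091 CPM in Pericytes. Pdgfra stood at 361.0 and 193.3 CPM in the class and at 2.61 and 4.03 CPM in Pericytes. Pdgfrb showed the opposite order, with 135.8 and 107.8 CPM in the class against 980.5 and 998.8 CPM in Pericytes. Rgs5 was at 90.5 and 97.5 CPM against 8872 and 6049 CPM. These levels are those of fibroblasts and not of pericytes, in both libraries. Dcn was detected in 248 of 264 vehicle cells and 48 of 63 FAKi cells, so a larger part of the FAKi cells, 15 of 63, held no Dcn transcript. The cells without it include all 12 vehicle and 13 FAKi cells of subset 6, described below. Few cells that should lack Dcn had a UMI of it: 3.25% of vehicle and 0.75% of FAKi Beta cells, at median depths of 30792.5 and 30427.5 UMIs. Free RNA and doublets were not separated there, and 14 and 26 Beta cells were called doublets.

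**Figure D1:**
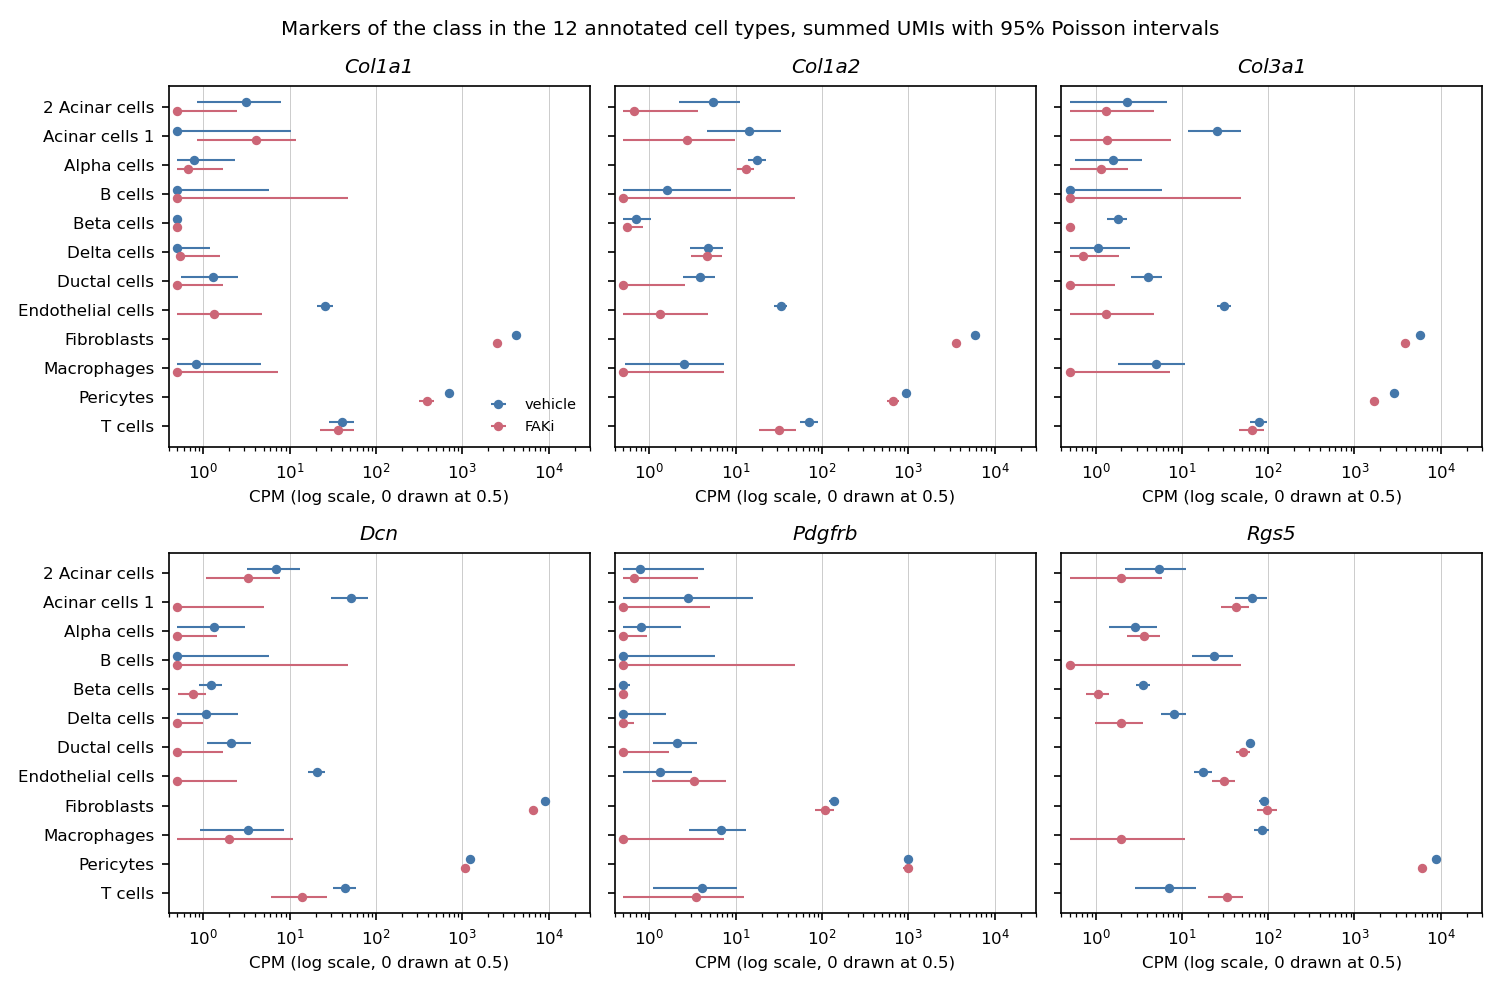
Level of 6 mesenchymal markers in each of the 12 annotated cell types, in CPM of the summed UMIs on a log axis (0 drawn at 0.5), with vehicle in blue, FAKi in red and 95% Poisson intervals as bars. Col1a1, Col1a2, Col3a1 and Dcn were highest in Fibroblasts, where Dcn stood at 9172 CPM in vehicle, whereas Pdgfrb and Rgs5 were highest in Pericytes.

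The 20 genes with the largest ratio of the class over all other cells were chosen by that ratio in the library where it was lower. Among them were genes of matrix proteins and of proteins that bind or cleave matrix: Dcn, Mfap4 (a microfibril protein), Mmp2 (gelatinase A), Col1a1, Col1a2 and Col5a1 (fibrillar collagens), Clec3b (tetranectin), Fbln1 (fibulin 1), Lum (lumican), Dpt (dermatopontin) and Fbn2 (fibrillin 2). Others were Igfbp6, Serpinf1, Gdf10, Crispld2 and Svep1, whose products are secreted, Islr, Ptgis (prostacyclin synthase), the transporter gene Abca8a and Pdgfra. Since the cells were clustered on these genes, this is a description of the class and not a test. Over the class, the levels of all 20 were lower in the FAKi library, from a log2 ratio of -0.16 for Igfbp6 to -1.04 for Mmp2, beside 58.5% of all genes tested. In the 6 subsets called the core below, 18 of the 20 were lower, beside 50.6% of all genes, and Col5a1 (0.03) and Lum (0.14) were not. With the vehicle subsets weighted to the FAKi mix, Igfbp6 was at 0.40.

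To see what kinds of cells the class holds, its 327 cells were clustered again on their variable genes, leaving out genes of acinar enzymes, islet hormones and haemoglobin. This gave 9 subsets. Subset 1 (63 vehicle and 13 FAKi cells) led with Scara5, a ferritin receptor (202 CPM against 4.66 in the rest of the class), Ly6a (870 against 65.2), Mfap5, Smoc2 and Cd248. Subset 2 (40 and 15 cells) led with Npr3, the clearance receptor for natriuretic peptides, the growth factor gene Nrg1, Fbn2 and Tgfbi, and with Notum, Wif1 and Dkk2, whose products act on Wnt signals. Subset 3 (35 and 11 cells) led with the complement genes C3 (2462 CPM against 598) and C4b (972 against 218), Ptn (pleiotrophin) and Cxcl12. These are differences by which the subsets were made, so they describe them and are not evidence that they are distinct cell types.

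Subset 4 held 37 vehicle cells and 0 FAKi cells and led with Acta2, which encodes smooth muscle actin (924 CPM against 135), beside Wif1, Notum, Myl9 and Tagln. Subset 5 (34 and 2 cells) led with Galnt15, Inmt (a methyltransferase, 1459 CPM against 260), Fmo2 (a monooxygenase) and the protease gene Mmp3. Subset 7 (17 and 4 cells) led with Vtn (vitronectin, 1434 CPM against 72.4), the chemokine genes Ccl2 and Ccl11, Il6, and Mgp (matrix Gla protein, 17600 CPM against 2939). Of the 10 pericyte markers used to name cells, which are part of a longer list of 24, 6 stood at 2 times the rest of the class or more in it (ratio of CPM + 1). Higd1b and Cspg4 had 1 UMI each there, and Steap4 and Mcam were below the rest. Rgs5 stood at 402 CPM against 73.4, Pdgfrb at 453 against 111 and Abcc9, a channel subunit gene, at 201 against 54.0, while Pdgfra stood at 195 against 337 and Acta2 at 68.8 against 254.8. In vehicle Pericytes Rgs5 was at 8872 CPM, Pdgfrb at 980.5 CPM and Abcc9 at 211.2 CPM, so subset 7 was far from them in Rgs5, nearer in Pdgfrb and close in Abcc9. With 1 library per condition, a subset found almost wholly in the vehicle library, as subsets 4 and 5, may be a property of that library rather than a kind of cell.

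The 3 remaining subsets differed from the fibroblast description. Subset 6 (12 and 13 cells) had no Dcn, Lum or Pdgfra transcript at all and only 395 CPM of Col3a1. It led with Fabp7 (3593 CPM against 1.68 in the rest), Chl1, Kcna1 and Gfra3 (671 CPM), and also held Sox10 (221 CPM), S100b (379 CPM) and Cdh19 (332 CPM). These are genes of glial cells that ensheath nerve fibres, and the subset is called Schwann-like here. Subset 8 (16 and 1 cells) led with the chemokine gene Cxcl13 (9638 CPM against 0 in the rest), Trf (transferrin), Enpp2 (autotaxin), Fabp4 and Wt1 (492 CPM), with Dcn at 10330 CPM. Subset 9 (10 and 4 cells) led with genes of beta cells, among them Nkx6-1, Mafa and Ucn3, and carried Ins2 at 339100 CPM beside Dcn at 1257 CPM. Its cells were large, with a median of 30154.5 UMIs, and 4 of these 14 cells were called doublets, droplets with more than 1 cell.

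**Figure D2:**
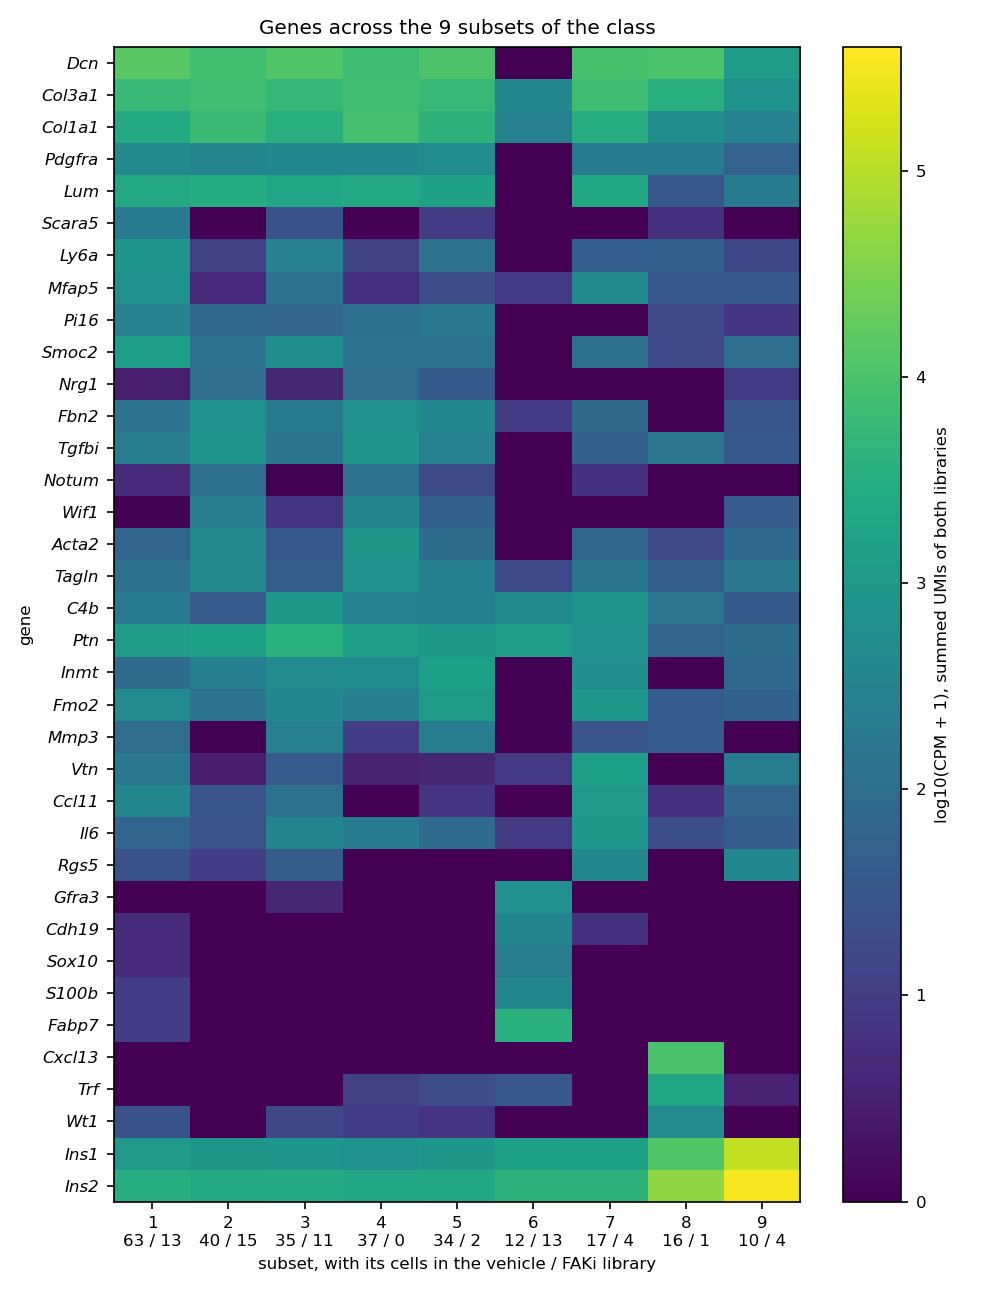
Heat map of 36 genes (rows) in the 9 subsets of the class (columns, with vehicle and FAKi cell numbers), coloured by log10(CPM + 1) of the UMIs summed over both libraries. Dcn and Col3a1 were high in subsets 1 to 5, 7 and 8, the block of Gfra3, Cdh19, Sox10, S100b and Fabp7 stood in subset 6, and Ins1 and Ins2 were highest in subset 9.

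The 9 subsets entered the summed values of the 2 libraries with unequal weight. The Schwann-like subset 6 gave 2.08% of the class's UMIs in vehicle and 12.7% in FAKi, and subset 9 gave 12.2% and 23.8%. Subset 4 gave 17.1% in vehicle and none in FAKi, and subset 5 gave 13.2% and 1.79%. For this reason most values over all 327 cells are set beside those of the 6 subsets 1 to 5 and 7 alone (called the core, 226 vehicle and 45 FAKi cells, 1981156 and 359825 UMIs). The core leaves out subsets 6 and 9 but keeps subsets 4 and 5. Core values thus still carry the unequal weight of subsets 4 and 5 in the libraries. The plotted gene lists and some genes are also given with the vehicle subsets weighted by the share of UMIs each had in FAKi. Both views were chosen after the subsets had been seen. The core held 78.7% of the class's UMIs in vehicle and 61.6% in FAKi.

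Over the whole class, 6953 genes had 50 or more UMIs. The FAKi level was higher by 2-fold or more (log2 ratio of CPM + 1) in 145 of them (2.09%) and lower in 282 (4.06%). Over all 6953 the median log2 ratio was -0.09. In the core, 5811 genes qualified, of which 88 (1.51%) were higher and 183 (3.15%) lower in FAKi, with a median of -0.01. The transcripts of the 145 higher genes lay mostly outside the core. For 78 of them, over 50% of the FAKi UMIs lay in the Schwann-like subset 6, for 24 in subset 9, and for 30 in the core, and 31 were genes of acinar enzymes or islet hormones. In 60 of them 1 cell gave over 25% of the FAKi UMIs. The 30 higher genes with over 50% of their FAKi UMIs in the core made up 20.7%, against 85.8% of all genes tested. Of the 282 lower genes, 265 (94.0%) had over 50% of their vehicle UMIs in the core, which was near the 97.2% of all genes tested. In the core, 150 of the lower genes (53.2%) and 68 of the higher ones (46.9%) were again past 2-fold in the same direction, and 111 and 34 of these had 50 or more UMIs there.

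Genes of acinar enzymes and islet hormones are abundant in other cells of the preparation and may also occur as free RNA, which was not measured. These genes differed between the libraries. Together with haemoglobin genes they took 7.71% of the class's UMIs in vehicle and 16.8% in FAKi, and 1.20% and 2.61% in the core. All 24 acinar genes tested were higher in FAKi by 2-fold or more, with a summed level of 5037 CPM in vehicle and 26960 CPM in FAKi. A single cell of subset 6 held 54.9% of the FAKi acinar UMIs, and without it the FAKi level was 12470 CPM. Ins2 stood at 45270 and 90720 CPM over the class and at 2278 and 4825 CPM in the core. In the other direction, 92.4% of the vehicle's haemoglobin UMIs lay in 1 cell of subset 2. When CPM was taken over the genes outside these lists, the median log2 ratio of all genes moved from -0.09 to 0.06, and 175 of the 6902 genes outside the lists were higher and 184 lower by 2-fold or more. With CPM of all UMIs, 114 and 280 of these same genes were higher and lower. Without the 20 most abundant genes of the class the counts were 185 and 228. The excess of lower genes was thus smaller with these other totals. It was smaller too with a pseudocount of 10 CPM, which weighs low levels less, at 93 higher and 105 lower genes.

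**Figure D3:**
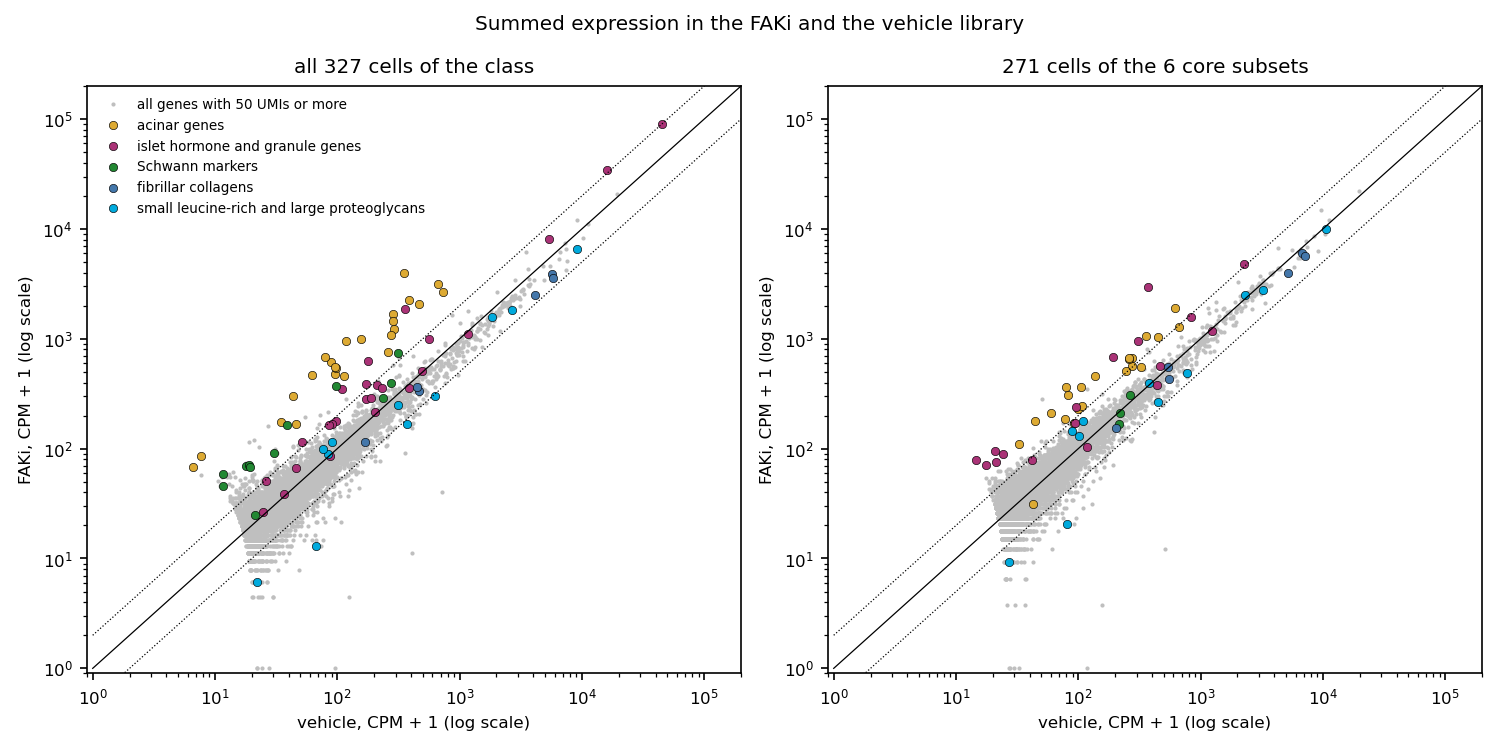
Each gene with 50 or more UMIs as a point, with its vehicle level on the x axis and its FAKi level on the y axis (CPM + 1, log scales), over all 327 cells on the left and the 271 core cells on the right. The solid line marks equal levels and the dotted lines 2-fold. Schwann markers (green) lie above the upper dotted line on the left in 9 of 12 cases and near equality on the right, where 3 had enough UMIs, and acinar genes (yellow) lie above it in all 24 cases on the left and in 18 of 22 on the right.

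Among the genes highest in FAKi, the acinar gene Clps (colipase) had a log2 ratio of 3.49, with 88.3% of its FAKi UMIs in 1 cell. Outside the acinar, islet hormone and haemoglobin lists, and without genes that 1 cell dominated, the highest ratios belonged to genes whose FAKi transcripts lay mostly in the Schwann-like subset. Of the 15 genes that met this rule on size, 13 are named here. They were Cntf (ciliary neurotrophic factor), Apod (apolipoprotein D), Cmtm5, Grb14, Ank3 (ankyrin G), Ttyh1, Tspan15, Cdh2 (N-cadherin), Slc43a2, Ncam1, Syt11, Vwa1 and Lgi4, a secreted factor of the Schwann lineage. All 15 had over 50% of their FAKi UMIs in subset 6, from 63.6% for Slc43a2 to 100% for Cmtm5. The rule asked for detection in 20% of the cells of the higher library, and subset 6 was 20.6% of the FAKi cells and 4.55% of the vehicle cells, so genes of this subset could pass it more readily through FAKi. Fabp7, a fatty acid-binding protein of glia, was at 96.1 and 373.0 CPM over the class and at 4527 and 2935 CPM within the 12 vehicle and 13 FAKi cells of the subset. The median log2 ratio of the Schwann list was 1.86 over the class, with 9 of 12 tested genes higher by 2-fold or more, beside 2.09% of all genes. It was -0.40 once the vehicle subsets were weighted to the FAKi mix. Within subset 6 Fabp7 was thus not higher in FAKi, and the subset held 13 of the 63 FAKi cells and 12 of the 264 vehicle cells.

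Lists of matrix genes had medians below 0 over the class and nearer 0 in the core, with members in both directions in some of them. Of the 7 fibrillar collagen genes 6 had enough UMIs, and all 6 were lower over the class, beside 58.5% of all genes tested. None was lower by 2-fold, beside 4.06% of all genes. Their median log2 ratio was -0.55 over the class, -0.35 in the core and -0.26 with weighted subsets. Col3a1 was at 5691 CPM (5599 to 5785) in vehicle and 3877 CPM (3719 to 4040) in FAKi, a ratio of 0.681 (0.651 to 0.712), and in the core at 6782 and 5992 CPM, a ratio of 0.883 (0.844 to 0.925). Col1a1, the α1 chain of type I collagen (chr11:94936224-94953042, mm10), was at 4146 and 2507 CPM over the class, a ratio of 0.605 (0.572 to 0.639), and at 5143 and 3974 CPM in the core. Col5a1, which nucleates fibrils, was at 444.8 and 361.0 CPM over the class and nearly equal in the core, at 540.6 and 553.0 CPM. The sign of the collagen median was thus the same in the 3 views, and its size was smaller in the core than over the class. The core still holds subset 4, which had 0 FAKi cells. Over subsets 1, 2 and 3 alone the median was -0.11. There the log2 ratio was -0.14 for Col3a1, -0.09 for Col1a1, -0.37 for Col5a2 and 0.20 for Col5a1.

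The small proteoglycans followed the same course, with differences between members. Of 11 genes, 4 were lower by 2-fold or more over the class, beside 4.06% of all genes, and none higher. In the core 2 were lower by 2-fold or more, beside 3.15% of all genes: Fmod (fibromodulin), with 157 UMIs in vehicle and 7 in FAKi there, and Omd (osteomodulin), with 52 and 3. The median log2 ratio was -0.48 over the class and -0.08 in the core. Dcn (chr10:97479500-97518163, mm10) was at 10520 CPM in vehicle and 9958 CPM in FAKi in the core, and Lum, which also binds fibrils, at 2296 and 2526 CPM. Ogn (osteoglycin) was lower in both views, at 368.1 and 166.0 CPM over the class and 449.2 and 264.0 CPM in the core, and so was Prelp, at 631.0 and 302.8 and at 768.7 and 483.6 CPM. Abundant members of the family were thus near equality in the core while the less abundant Ogn and Prelp were not.

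Elastic fibre genes had a median log2 ratio of -0.42 over the class and -0.35 in the core. Eln (elastin) stood at 525.8 and 258.4 CPM over the class, a ratio of 0.491 (0.413 to 0.582), and at 646.1 and 411.3 CPM in the core, and Mfap4 at 1060 and 633.1 CPM over the class and at 1323 and 1017 CPM in the core. Among 18 proteases and inhibitors tested, 4 were lower by 2-fold or more over the class and 3 of 17 in the core, beside 4.06% and 3.15% of all genes, and none were higher. Mmp2 was at 963.0 and 468.8 CPM over the class, a ratio of 0.487 (0.428 to 0.552), and at 1200 and 750.4 CPM in the core. Timp3, an inhibitor of such proteases, was near equal over the class (758.9 and 727.2 CPM) and lower in the core (851.0 and 525.3 CPM). Laminins and other basement membrane genes had medians of -0.46 over the class and -0.28 in the core, with 1 of 10 higher by 2-fold or more over the class (Agrn, the gene of agrin) and none in the core. Other collagens had medians of -0.47 and -0.21, with 3 of 18 lower (Col4a3, Col4a4 and Col4a6) and 2 higher (Col8a1 and Col18a1) over the class, and 1 of 17 lower and 1 higher in the core. Genes of collagen folding and crosslinking had medians of -0.22 and 0.03, and matricellular and adhesive glycoproteins -0.23 and -0.02. Of the latter, 3 of 18 were lower (Fn1, Tnc and Smoc2) and 3 higher (Postn, Thbs2 and Vtn) over the class, and 0 of 17 were lower and 1 higher in the core. Of all genes, 4.06% were lower and 2.09% higher over the class, and 3.15% and 1.51% in the core. In Pericytes the median of the fibrillar collagens was -0.72 and that of the proteoglycans -0.24, beside 0.00 over all genes.

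**Figure D4:**
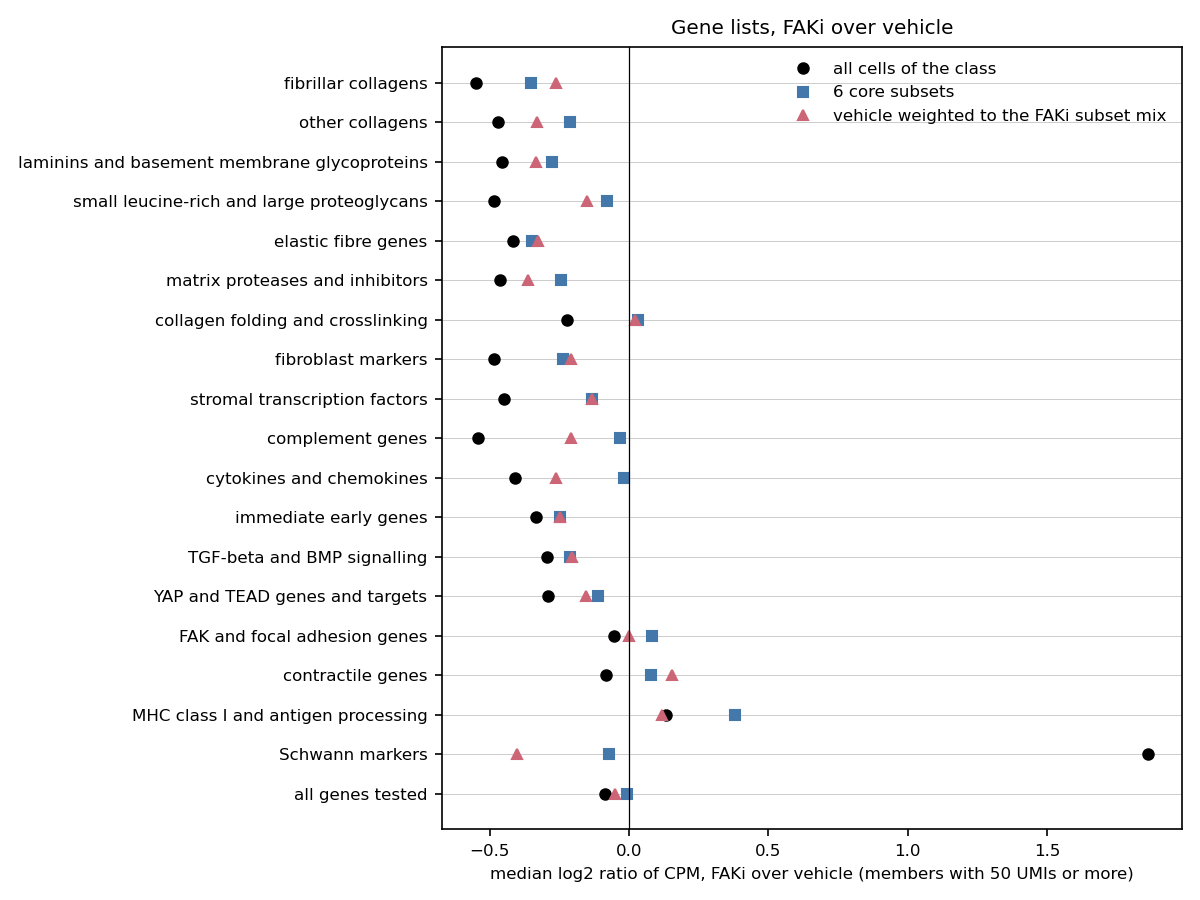
Median log2 ratio of FAKi over vehicle CPM (x axis) for 18 gene lists and all genes tested (y axis), over all cells of the class (black circles), the 6 core subsets (blue squares) and with the vehicle subsets weighted to the FAKi mix (red triangles). Fibrillar collagens moved from -0.55 to -0.35 and -0.26, Schwann markers from 1.86 to -0.07 and -0.40, and FAK and focal adhesion genes lay near 0 in all 3.

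The 3 core subsets with 10 or more cells in each library did not share 1 direction for collagen. In subset 1, Col3a1 was higher in FAKi, at 5224 CPM in vehicle and 8567 CPM in FAKi, a ratio of 1.64 (1.51 to 1.78). In subset 2 it was lower, at 8467 and 6060 CPM, and in subset 3 lower again, at 5995 and 2967 CPM, a ratio of 0.495 (0.429 to 0.569). Col1a1 followed the same order, at 2392 and 3713 CPM in subset 1, 6920 and 5885 CPM in subset 2 and 3946 and 1407 CPM in subset 3. The FAKi side rested on 13, 15 and 11 cells. Per cell, Col3a1 in subset 3 ranged from 1064 to 12900 CPM with a median of 5537 in vehicle and from 953.7 to 4415 CPM with a median of 3162 in FAKi, so the cells of the 2 libraries overlapped. In subset 1 they overlapped too, from 700.3 to 13860 CPM and from 855.4 to 15940 CPM, with medians of 4139 and 7576. Dcn did not follow this order: it was at 14750 and 14120 CPM in subset 1, 8477 and 6162 in subset 2 and 11840 and 12980 in subset 3.

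**Figure D5:**
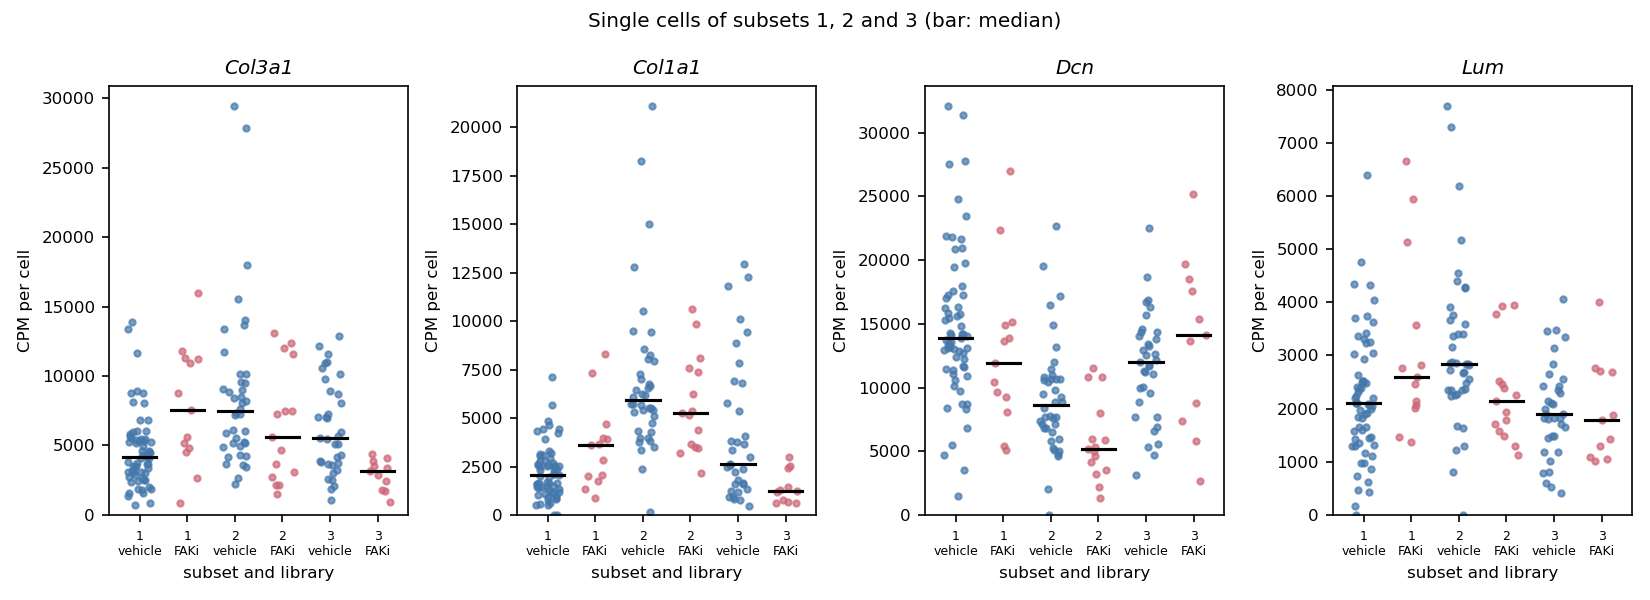
Level per cell (CPM, y axis) of Col3a1, Col1a1, Dcn and Lum in subsets 1, 2 and 3, with each vehicle cell in blue, each FAKi cell in red and the median as a bar. The Col3a1 median was 4139 CPM in vehicle and 7576 CPM in FAKi in subset 1, and 5537 and 3162 CPM in subset 3, with overlapping cells in both.

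The 15 lower genes named by size had between 50.2% (Fn1) and 99.7% (Masp1) of their vehicle UMIs in the core, beside 78.7% for all UMIs of the class. Stc2 (stanniocalcin 2, a secreted glycoprotein) had 184 UMIs in vehicle and 7 in FAKi, 73.1 and 12.0 CPM, a ratio of 0.164 (0.0650 to 0.345). The unnamed locus Gm34030 had 267 and 12 UMIs, a ratio of 0.194 (0.0988 to 0.344), with log2 ratios of -2.31 over the class, -2.03 in the core and -2.04 with weighted subsets. It was lower in each of subsets 1, 2 and 3, at -2.55, -2.13 and -1.21, although the FAKi UMIs there numbered 1, 5 and 3. Cyp27a1 and Cyp2e1, cytochromes P450 for sterols and for small organic molecules, had 166 and 8 and 189 and 8 UMIs. For Cyp2e1, 84 of the 189 vehicle UMIs lay in subset 4 and 57 in subset 5, the subsets with 0 and 2 FAKi cells.

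The lower genes also held 3 metalloproteases, Adam33 (61.2 CPM in vehicle and 13.7 in FAKi), Adamts4 (78.2 and 20.5) and Adamts7 (36.9 and 8.56), whereas their relative Adamts1 had a log2 ratio of -0.10. Adamts4 and Adamts7 cleave matrix proteins. The others were Chst7 (a sulfotransferase for proteoglycan chains), Hoxa5 (a position-dependent transcription factor), Ptgs1 (cyclooxygenase 1), Insig1 (a sensor of sterols), Pik3r4, Masp1 (a complement protease) and Mbd1. Fn1, the gene of fibronectin, a main ligand of integrins, was at 354.6 CPM in vehicle and 90.7 CPM in FAKi over the class, a ratio of 0.256 (0.190 to 0.338), but 435 of its 893 vehicle UMIs lay in subset 8, of which FAKi held 1 cell. In the core it was at 226.1 and 127.8 CPM, and 36.2% of the core's vehicle UMIs lay in 1 cell. Mbd1 was uneven: in subset 3, of which it was a leading gene, it had 95 UMIs in vehicle and 1 in FAKi, and in subset 1 it had 19 and 5 UMIs, 43.5 and 56.4 CPM.

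In vehicle, 5 genes had 50 or more UMIs with none in FAKi. They could pass the minimum of 50 UMIs only through vehicle, where it stands for 19.9 CPM. The reverse would have needed 85.5 CPM in FAKi and was seen for 0 genes, so the 2 counts cannot be compared. Mmp3 (stromelysin 1, which degrades several matrix proteins) had 239 UMIs in 40 vehicle cells and 0 in FAKi, at least 18.5-fold lower when FAKi is set at a floor of 3 UMIs in the class's 584463. Its vehicle UMIs lay in subsets 3 (91), 5 (78) and 1 (53), so they were not restricted to the subsets that FAKi lacked. Slc6a2, the noradrenaline transporter, had 67 UMIs (at least 5.18-fold lower), of which 37 lay in subset 4. Gm20186 had 58 UMIs, and Hhip and Apln had 53 each, with 45.3% and 66.0% of them in 1 cell. Cxcl13, the leading gene of subset 8, had 1797 UMIs in vehicle and 23 in FAKi, and none of either lay in the core.

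A smaller set stood higher in FAKi within the core. H2-D1, a classical class I histocompatibility gene, was at 868.5 CPM in vehicle and 1658 CPM in FAKi over the class, a ratio of 1.91 (1.77 to 2.06), and at 834.9 and 1567 CPM in the core. It was higher in each of the 4 subsets with 10 or more cells in both libraries, with ratios of 1.45 (1.21 to 1.73), 1.90 (1.54 to 2.33), 1.27 (1.02 to 1.57) and 1.90 (1.52 to 2.40) in subsets 1, 2, 3 and 6. In subset 2, 43.2% of the FAKi UMIs were in 1 cell. H2-D1 has near-identical relatives, so its reads may be split among them. B2m, the partner chain of class I molecules, was at 686.5 and 1048 CPM in the core, and H2-K1 at 413.4 and 630.9 CPM. The list of class I and antigen processing genes had a median log2 ratio of 0.13 over the class and 0.38 in the core, with none of 18 past 2-fold over the class and 2 of 16 higher by 2-fold or more in the core, beside 2.09% and 1.51% of all genes.

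Igf1, which fibroblasts secrete as a growth factor, was at 380.6 and 750.4 CPM in the core and at 316.5 and 463.7 CPM over the class, with 21.8% of the FAKi UMIs in 1 cell. Postn (periostin) was at 70.2 and 139.0 CPM in the core and at 83.0 and 215.6 CPM over the class, where 54.8% of its FAKi UMIs lay in the Schwann-like subset. Mgp, an inhibitor of calcification, was at 4279 and 6667 CPM in the core, with log2 ratios of 0.29, 1.52 and -0.04 in subsets 1, 2 and 3. Vtn was at 117.6 and 344.6 CPM in the core, with 31.9% of the FAKi UMIs in 1 cell. Mgp and Vtn are leading genes of subset 7, which gave 7.09% of the core's UMIs in vehicle and 9.41% in FAKi. Over subsets 1, 2 and 3 alone the log2 ratio was -0.01 for Mgp and 0.24 for Vtn, against 1.08 for Igf1, 0.50 for Postn and 0.50 for H2-D1. H2-D1 was thus higher in each of the 3 subsets, whereas the Mgp difference was largest in subset 2 and near 0 in subset 3.

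Focal adhesion genes, the pathway of the inhibited kinase, had a median log2 ratio of -0.05 over the class and 0.08 in the core, beside -0.09 and -0.01 over all genes. Of 39 tested, 1 was higher and 0 were lower by 2-fold or more, beside 2.09% and 4.06% of all genes, so these counts do not set the list apart. Ptk2 had 79 UMIs in vehicle and 31 in FAKi over the class, 31.4 and 53.0 CPM, a ratio of 1.69 (1.08 to 2.59), with a log2 ratio of -0.43 in the core. The inhibitor acts on the kinase and not on its transcript, and phosphorylation was not measured here. The 6 integrin genes tested had medians of -0.39 over the class and -0.37 in the core, with 5 of 6 below 0 over the class, beside 58.5% of all genes. Among them Itgb1, the common β1 chain, was at 289.5 and 236.1 CPM over the class and at 309.4 and 308.5 CPM in the core, and Itga8 was the one lower by 2-fold or more, at 105.2 and 35.9 CPM over the class, with a log2 ratio of -1.37 in the core.

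Lists of signals downstream of matrix and growth factors had medians between -0.38 and -0.29 over the class: TGF-β and BMP signalling -0.30 (5 of 30 lower by 2-fold or more, 0 higher), YAP and TEAD genes -0.29 (3 of 22 lower) and PDGF and FGF genes -0.38 (0 of 10), beside 4.06% of all genes lower. In the core, where 3.15% of all genes were lower and 1.51% higher, the medians were nearer 0, at -0.21 (2 of 29 lower and 1 higher), -0.11 (1 of 21 lower) and -0.23 (1 of 9 higher). Tgfbi, an adhesion protein induced by TGF-β, was at 414.2 and 169.4 CPM over the class and 504.3 and 272.4 CPM in the core. Ccn2, a target of YAP, was at 139.8 and 219.0 CPM over the class, and Ccn1 at 521.0 and 451.7 CPM. In the core the log2 ratios were 0.29 and -0.32, and over subsets 1, 2 and 3 they were -0.24 and -0.37, so the direction of Ccn2 turned with the view. Ccn2 was a leading gene of the core subset 7, at 843.1 CPM against 113.7 CPM in the rest of the class. In the Schwann-like subset it stood at 410.7 CPM against 143.8 CPM in the rest. Pdgfra was at 361.0 and 193.3 CPM over the class, a ratio of 0.536 (0.437 to 0.652), and at 429.0 and 302.9 CPM in the core. Stromal transcription factors had medians of -0.45 and -0.13, and contractile genes -0.08 and 0.08.

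Complement genes had medians of -0.54 over the class and -0.03 in the core, and cytokines and chemokines -0.41 and -0.02. Over the class 1 of 12 and 4 of 22 were lower by 2-fold or more, beside 4.06% of all genes, and none were higher. Above 0 lay 3 and 6 of them, beside 41.5% of all genes. C3 was at 854.6 and 527.0 CPM over the class and at 735.9 and 805.9 CPM in the core. Interferon response genes had medians of 0.12 and 0.44, with 2 of 18 higher by 2-fold or more over the class and 3 of 15 in the core, beside 2.09% and 1.51% of all genes, and none lower. Immediate early genes, which respond to tissue handling as well as to signals, had a median of -0.33 over the class and -0.25 in the core. By subset it was -0.77, -0.50, 0.25 and -0.84 in subsets 1, 2, 3 and 6, so subset 3 went the other way. Junb was lower in each of subsets 1, 2 and 3 (log2 ratios of -1.33, -1.03 and -0.61), whereas Jun was at 2034 and 3274 CPM in the core. Hspa1a, a heat shock gene, was at 1329 and 2151 CPM in the core, where subset 3 had 1439 and 3803 CPM. These genes differed between the libraries beside the matrix genes, and their part in the matrix values was not tested.

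Markers of other cell types were counted in the class as a whole. The pericyte list summed to 1014 CPM in vehicle and 1181 CPM in FAKi (24 and 23 of 24 genes detected), the endothelial list to 463.0 and 352.5 CPM (15 and 10 of 15), the leukocyte list to 86.6 and 32.5 CPM (14 and 6 of 16), the ductal list to 269.2 and 323.4 CPM (14 and 13 of 15) and the mesothelial list to 162.8 and 198.5 CPM (11 and 7 of 13). Among defining genes, Pecam1 and Cdh5 had 23 and 9 UMIs in vehicle and 0 in FAKi, Ptprc had 6 and 0, and Epcam had 63 and 29. The Schwann list summed to 1121 and 2551 CPM with 17 of 18 genes detected in each library. Endothelial and leukocyte transcripts were therefore few in both libraries, and the sums of the Schwann list and of the acinar list given above were higher in FAKi by more than 2-fold.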

How the data were processed

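Islet cells were captured with the Chromium 3′ v3.1 kit. The deposited table holds UMI counts, whole numbers per gene and cell. Per the submitters' processing notes the authors aligned reads to mm10 with Cell Ranger and used Seurat 3.1, and per the study's methods they kept cells below 8% mitochondrial reads and normalised with SCRAN, integrated with scanorama and clustered with Louvain. Cell types and the vehicle (labelled Control) or FAKi library come from the deposited cell annotation. The count columns were used as deposited, and 23 gene names that had been turned into dates were left as they were. The 8 deposited samples are 4 lanes of each of 2 libraries and do not separate in the table, so the library was the unit.

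UMIs were summed over the class's cells per library and expressed as UMIs per 1000000 (CPM). Log2 ratios are of CPM + 1, and genes with 50 or more UMIs over both libraries were compared, with 2-fold as the size rule. Such ratios understate differences of low genes. Levels carry exact Poisson 95% intervals, ratios exact conditional binomial ones and shares Clopper-Pearson ones. With 1 library per condition no test was run. Named are the markers, up to 5 genes per list by UMIs, the 20 genes highest in the class over other cells, and the 15 genes highest and lowest by log2 ratio (and the 10 among genes 2 times higher in the class than elsewhere) detected in 20% or more of the cells of the higher library, with no cell over 25% of its UMIs and on no acinar, islet hormone or haemoglobin list. Genes named outside this rule, such as the leading genes of subsets, those at 0 in FAKi, single list members past 2-fold, Ptk2 and Maml1, were chosen after their values were seen. A few genes are not reported here. The members and the 41 gene lists were chosen with earlier results of these data known.

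Subsets came from Louvain clustering (scanpy 1.11.5, resolution 1, 1500 variable genes, 20 components, 15 neighbours). Scrublet called 5 and 2 doublets in the class. They were kept. The libraries shared 4 cell barcodes, none in the class. Coordinates are from RefSeq GRCm38.p6 (mm10). The ratio code was checked on simulated counts.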

Additional observations from a re-analysis of the deposited data

Results flagged for a closer look

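The fibrillar collagen and proteoglycan lists had opposite signs in different subsets of the class. The median log2 ratio of FAKi over vehicle of the fibrillar collagens was 0.37 in subset 1 and -1.25 in subset 3, over 6 genes in each, and that of the proteoglycans was 0.39 over 9 genes and -1.05 over 7. The medians of all genes tested were 0.00 in subset 1 and -0.11 in subset 3. The FAKi side held 13 and 11 cells of 1 library, and the cells of the 2 libraries overlapped in their Col3a1 levels. Overlap over the whole lists was not looked at, and the difference between the subsets was not tested.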

How the results depend on the processing

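The shares of the class kept their order without doublets, with cells of 1000 or more detected genes and outside the acinar classes. Of the 12 levels of the class markers, 10 moved past their counting intervals without doublets, and 10 did when each cell was thinned to 2000 UMIs. The 145 higher and 282 lower genes became 343 and 649 at 20 or more UMIs, 39 and 62 at 200 or more, 59 and 109 when each cell was thinned to 2000 UMIs (10 vehicle and 4 FAKi cells left out), 93 and 105 with a pseudocount of 10 CPM, and, in alternatives added after seeing the data, 88 and 183 in the core and 50 and 128 in subsets 1, 2 and 3. They were 83 and 303 in cells below 5% mitochondrial UMIs, 83 and 225 with weighted vehicle subsets, and 175 and 184 outside the acinar, hormone and haemoglobin lists.

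The fibrillar collagen median moved to -0.31 in cells without a UMI of Pecam1, Cdh5, Ptprc or Epcam, -0.35 in the core, -0.26 with weighted subsets and -0.11 in subsets 1, 2 and 3. In the same order the proteoglycan median was -0.30, -0.079, -0.15 and -0.063, and it was -0.35 without the 20 most abundant genes, -0.33 outside the acinar, hormone and haemoglobin lists, -0.33 at 200 or more UMIs, -0.36 without doublets and -0.40 without the largest cell of each library. The fibroblast marker median was -0.81 below 5% mitochondrial UMIs, -0.24 in the core, -0.21 with weighted subsets and -0.24 in subsets 1, 2 and 3. The Schwann median was 0.90 at 200 or more UMIs, 1.20 below 5% mitochondrial UMIs, 0.10 in subsets 1, 2 and 3, and below 0 in the core (-0.071) and with weighted subsets (-0.40). The causes were not tested. The median of the focal adhesion genes ran from -0.31 to 0.18 over its 16 alternatives.

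Single genes of subsets 6, 8 and 9 changed sign. In the core log2 ratios were 0.13 for Wt1, -0.88 for Krt8, -1.82 for Fabp7, 0.70 for Cd74, -1.01 for Cmtm5, -2.18 for Grb14, -3.01 for Ttyh1, -0.36 for Syt11 and -0.25 for Nrn1. With weighted subsets they were 0.0088 for Wt1, -0.63 for Fabp7, -0.021 for Cmtm5, -0.044 for Ank3, -0.021 for Cdh2, -0.16 for Ncam1, -0.65 for Lgi4 and -0.087 for Nrn1. Without cells holding a UMI of Pecam1, Cdh5, Ptprc or Epcam, Ins2 was at -0.12 and Ins1 at -0.57. No paired analysis was possible because the lanes that share a number are parts of 1 library per condition and are not separable in the table, and no replicate could be left out for the same reason. With 63 FAKi cells the counting intervals of low genes within subsets were wide, as for Ccn2 in subset 2, with a ratio of 0.698 (0.232 to 1.76).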

Other observations

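Adipogenic and lipid genes had a median log2 ratio of -0.11 over the class (2 of 13 higher and 3 lower by 2-fold or more, beside 2.09% and 4.06% of all genes) and -0.53 in the core, where none of 7 passed 2-fold. Their medians were -0.69, -0.69, -0.22 and -0.25 over 3 or 4 genes in subsets 1, 2, 3 and 6. Apoe, which encodes the lipid carrier apolipoprotein E, was at 3476 CPM in vehicle and 6132 CPM in FAKi over the class and at 3106 and 2537 CPM in the core. In the Schwann-like subset 6 it stood at 31080 and 33460 CPM, while in subset 1 it was at 3146 and 1400 CPM and in subset 2 at 2105 and 1230 CPM. Lpl (lipoprotein lipase) was at 1366 and 944.9 CPM in the core, and Cebpb, a transcription factor of adipogenesis and inflammation, at 645.6 and 378.0 CPM. Cebpb was lower in FAKi in each of subsets 1, 2 and 3, at log2 ratios of -0.42, -0.82 and -0.61.

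Itga8, the integrin chain named above, was at 30 UMIs in vehicle and 2 in FAKi in subset 1, a ratio of 0.328 (0.0380 to 1.29). In subset 2 it had 77 and 13 UMIs, a ratio of 0.452 (0.230 to 0.818), and in subset 3 it had 27 and 1 UMIs, a ratio of 0.116 (0.00282 to 0.701). The interval thus reached past equality in subset 1 and not in subsets 2 and 3. Igfbp4, which binds insulin-like growth factors, was at 1181 and 1704 CPM in the core and at log2 ratios of 0.59, 0.48 and 0.12 in the subsets. Its relative Igfbp3 was at 1926 and 1348 CPM in the core, with log2 ratios of -0.88, 0.50 and -1.85. The 2 genes thus differed in direction in subsets 1 and 3.

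Notch pathway genes had a median log2 ratio of -0.21 over the class and -0.36 in the core, with 1 of 8 lower by 2-fold or more over the class, beside 4.06% of all genes. That gene was Maml1, a co-activator of Notch, with 65 UMIs in vehicle and 4 in FAKi. Hes1, a target of the pathway, was at 171.6 and 102.8 CPM in the core and Heyl at 45.4 and 63.9 CPM. The 13 genes encoded by the mitochondrial genome had medians of -0.11 and -0.02, and none differed by 2-fold.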
